A study of Homo sapiens with 9 samples.

Results

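The SWI/SNF remodelling complexes were described here through the messenger RNA of their 30 subunit genes, the listed members of the BAF, PBAF and ncBAF complexes. They were found by symbol among the 58347 gene identifiers of a read count table, and all 30 were present. RNA had been sequenced from 9 libraries of K562, an established human erythroleukaemia line. The design asked whether endogenous BAF, brought to a promoter, could activate the fetal globin gene HBG1.

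Every library came from cells of the K562-FIRE line. All groups thus carry 3 EF1a-driven constructs. One, marked Lv, gives dCas9 with 2A Blast, another gives MS2-Fkbp(1x) with 2A Hygro, and the third, also marked Lv, gives SS18-Frb with PGK Puro. Rapamycin bridges Fkbp and Frb, so the SS18 fusion can be drawn to the place where dCas9 sits. Rapamycin also inhibits mTORC1 in cells with any guide. The first group had an HBG1 promoter sgRNA and DMSO (n = 3), and the second the same sgRNA and 10 nM rapamycin (n = 3). The third had a non-targeting sgRNA and DMSO (n = 1, replicate 2), and the fourth a non-targeting sgRNA and 10 nM rapamycin (n = 2, replicates 1 and 2), all for 24 h. The labels do not say that replicates were separate cultures, so p-values measure the spread between these libraries, which may be technical. They do not say whether the line is 1 clone.

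SWI/SNF complexes use the energy of ATP to slide or evict nucleosomes, and so open DNA to transcription factors. Each complex is built on an ATPase and a shared core, and the remaining subunits decide its kind: ARID1 and DPF proteins define canonical BAF, ARID2, PBRM1, BRD7 and PHF10 define PBAF, and BRD9 with BICRA or BICRAL defines the smaller ncBAF, which lacks SMARCB1 and SMARCE1. Many subunits come from families of paralogs of which 1 is taken up at a time, and during neuronal differentiation ACTL6A, SS18 and PHF10 or DPF2 give way to ACTL6B, SS18L1 and DPF1 or DPF3.

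The libraries held 19797409 to 31619671 counts, and the members took 0.407% to 0.483% of them, or 0.224% to 0.257% without ACTB. No strand setting is stated for the counts, so reads of overlapping genes were taken as not separable. The largest such overlaps were 42.3% of the exonic bases of BRD7 (with ADCY7), 19.8% of SMARCE1 (AC073508.2, on the same strand) and 17.7% of SMARCB1 (DERL3). ACTB has near-identical processed copies and actin paralogs, so its counts are uncertain. All 8 erythroid markers were present, with a summed level of 3472 to 5498 CPM, the TMM-scaled counts of a gene per 1e6 counts of its library. The T cell markers summed to 5.26 to 7.02 CPM, mostly CD3D at a mean of 5.20, and LCK was at 0. The neuron markers summed to 17.9 to 34.2 CPM, mostly TUBB3 at a mean of 19.8 and SYP at 4.83, while MAP2, SNAP25 and STMN2 averaged 0.0173 CPM or less. B cell markers summed to 1.34 to 3.87, monocyte markers to 15.9 to 31.9 (mostly LYZ) and fibroblast markers to 5.21 to 26.4 CPM (mostly COL1A2). HBG1 itself had a mean of 296 CPM (SD 150.2, n = 3) with its sgRNA and DMSO, 1929.6 CPM (SD 469, n = 3) with its sgRNA and rapamycin, and 8233 CPM or more in the 3 non-targeting libraries. In bulk RNA, fewer cells expressing a gene and less RNA per cell cannot be told apart.

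The SS18 and SS18L1 start regions are printed because these paralogs, which occupy the same place in the complex, are the pair whose balance differed most between treatments in the values below. SS18 (ENSG00000141380) lies on chromosome 18, 26016253 to 26091217, on the minus strand, and SS18L1 (ENSG00000184402) on chromosome 20, 62143795 to 62182484, on the plus strand (GRCh38, GENCODE 29). Each window holds 250 bases before and 50 after a RefSeq start on GRCh38.p14, chr18:26091170-26091469 (minus) for SS18 and chr20:62143519-62143818 (plus) for SS18L1. Capitals mark GC boxes (GGGCGG or its reverse complement) and CCAAT.
SS18: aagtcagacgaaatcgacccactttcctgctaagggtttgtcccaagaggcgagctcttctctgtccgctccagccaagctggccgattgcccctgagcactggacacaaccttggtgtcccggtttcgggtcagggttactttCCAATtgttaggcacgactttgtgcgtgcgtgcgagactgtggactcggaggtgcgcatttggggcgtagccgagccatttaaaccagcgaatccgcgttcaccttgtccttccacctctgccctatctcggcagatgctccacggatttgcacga
SS18L1: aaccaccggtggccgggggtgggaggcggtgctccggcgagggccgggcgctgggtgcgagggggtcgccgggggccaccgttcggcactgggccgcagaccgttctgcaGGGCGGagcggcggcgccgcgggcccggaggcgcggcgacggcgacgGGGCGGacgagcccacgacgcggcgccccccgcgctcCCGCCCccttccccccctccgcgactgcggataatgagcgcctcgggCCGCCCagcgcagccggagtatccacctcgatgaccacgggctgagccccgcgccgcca
The SS18 window had 56.7% GC, 21 CpG dinucleotides, 1 CCAAT and no GC box. The SS18L1 window had 80.0% GC, 49 CpG dinucleotides, 4 GC boxes and no CCAAT. RefSeq lists another SS18 start with its window at chr18:26090564-26090863, which had 67.0% GC and 1 GC box. The introduced SS18-Frb is read from an EF1a promoter and not from either window.

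Across the 42 windows listed for 25 of the 30 members, 73.8% held a GC box on either strand, against 45.0% of all 35116 windows of that length. Median GC was 67.8% against 58.7%, and the median number of CpG dinucleotides was 32 against 14. The other motifs searched on both strands were CCAAT (28.6% against 34.6% of all windows), CCGGAAG (7.14% against 10.3%), CACGTG (7.14% against 7.26%), TATAAA (7.14% against 11.5%) and GCATGCGC (0 against 3.05%). Matches of different motifs can share bases at their ends. The counts describe letters and not binding, and the members' windows were richer in GC, which the GC box letters share.

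**Figure D1:**
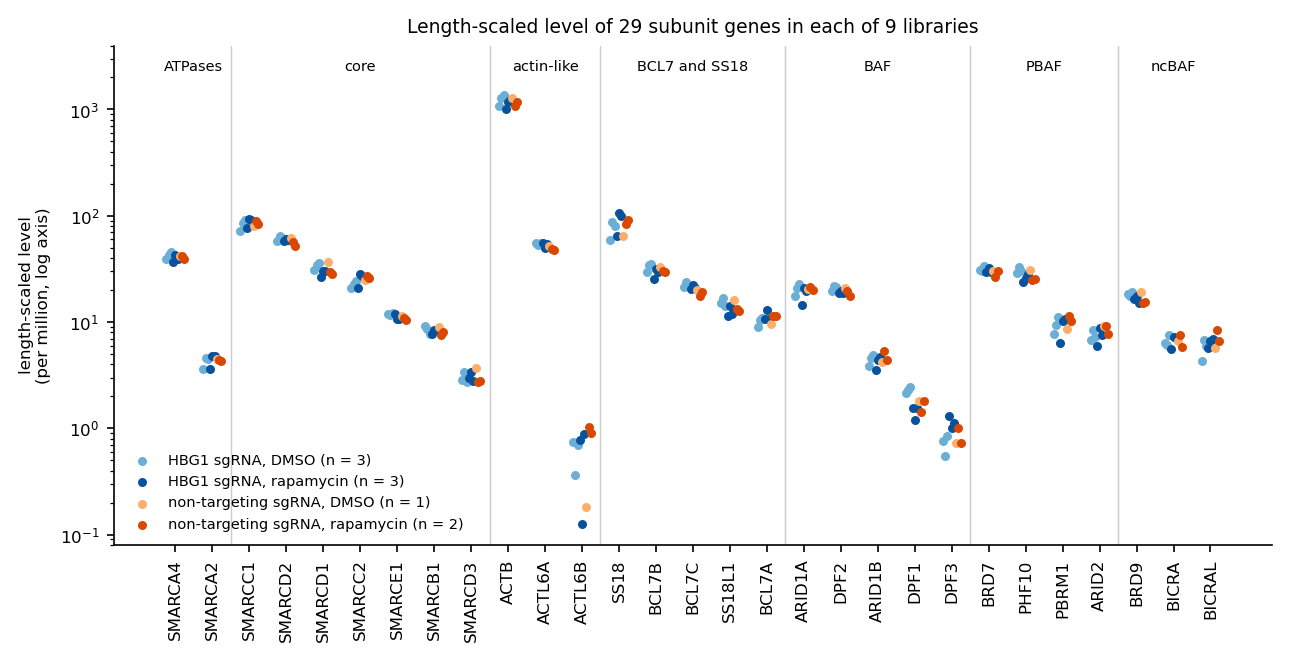
Length-scaled level (in parts per 1e6 of the library, log axis) of 29 subunit genes in each of the 9 libraries, grouped by role and coloured by group; each point is 1 library. ACTB stood at 1008 or more, ACTL6B, DPF1 and DPF3 at 2.45 or less, and the other 25 genes between these, up to 107. BCL11B had 0 counts and cannot be drawn on a log axis.

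Levels were compared between genes after division by the length of each gene's merged exons, scaled to the same sum of 1e6 in every library, as TPM are. ACTB, cytoplasmic actin and also a subunit, led at 1184 ± 115 (SD over 9 libraries). SMARCC1, a scaffold of the core, followed at 84.8 ± 7.24 (SD, n = 9), and SS18 at 82.0 ± 16.3 (SD, n = 9). These neighbours overlapped, with SMARCC1 between 72.4 and 93.5 and SS18 between 59.7 and 107. SS18 counts may hold reads of the introduced SS18-Frb, so this level may not be that of the gene alone. SMARCD2 (59.2), ACTL6A (52.4) and SMARCA4 (41.3) came next. SMARCD2 (52.1 to 65.2) and ACTL6A (47.6 to 55.9) overlapped, while by this length every SMARCA4 value (36.6 to 45.9) lay under every ACTL6A value. SMARCD1 (31.4), BCL7B (31.1), BRD7 (30.3) and PHF10 (27.9) overlapped with each other. At the low end stood SMARCD3 at 3.02 ± 0.358, DPF1 at 1.80 ± 0.422, DPF3 at 0.899 ± 0.236 and ACTL6B at 0.635 ± 0.330 (SD, n = 9 each).

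Merged exons run far beyond the usual transcript for some members, by 6.44 times for ARID1B and up to 9.59 times for SMARCB1, which lowers their level. With the median length of each gene's basic protein-coding transcripts, SMARCB1, a core subunit that contacts the nucleosome, moved from rank 20 to rank 9 of 30, and SMARCE1, another core subunit, from rank 17 to rank 8. SS18, with any reads of SS18-Frb, then stood at 137 and SMARCC1 at 64.2. SMARCA4 (73.6, from 65.2 to 81.9) was then above ACTL6A (64.0, from 58.4 to 68.1) in the mean, and their ranges overlapped. The 4 lowest ranks did not change, with DPF1 at 2.45, DPF3 at 0.960, ACTL6B at 0.623 and BCL11B at 0. This median length has limits too, as a short one raises a level. It was 2.47 kb for SMARCA2 beside 5.59 kb for its paralog SMARCA4.

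In several families 1 paralog made up most of the summed level. SMARCA4 (BRG1), the main ATPase, made up 89.2% to 91.6% of the summed length-scaled level of SMARCA4 and SMARCA2 (75.7% to 80.3% by transcript length). SMARCC1 made up 76.2% to 78.8% of its pair with SMARCC2, and ARID1A, the DNA-binding subunit of canonical BAF, 79.9% to 82.8% of its pair with ARID1B. By transcript length these shares were 64.8% to 68.0% and 60.3% to 64.9%. SMARCD2 held 60.2% to 66.1% of the SMARCD family, SMARCD1 30.5% to 36.2% and SMARCD3 2.68% to 3.63%. Among the related histone-reading subunits, PHF10 of PBAF held 52.5% to 57.1% and DPF2 of BAF 37.7% to 42.1%. BICRA and BICRAL, alternative scaffolds of ncBAF, had similar levels, with BICRA at 47.0% to 59.5% of their sum, or 52.6% to 64.7% by transcript length. BCL7B, BCL7C and BCL7A had mean length-scaled levels of 31.1, 20.8 and 10.8.

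Of the subunits known from neurons, ACTL6B, DPF1 and DPF3 were scarce and SS18L1 was not. ACTL6A took 97.9% to 99.7% of its pair with ACTL6B, which had 3 to 32 counts per library. SS18L1, at a length-scaled 14.0 ± 1.86 (SD, n = 9), ranked 16 of 30, with 587 to 1195 counts per library. SS18 took 80.0% to 89.3% of their pair, a share that any reads of SS18-Frb would raise. DPF1 had 58 to 161 and DPF3 52 to 115 counts per library. BCL11B, a zinc finger protein of T cells and neurons that has been found with BAF, had 0 counts in all 9 libraries, which allows up to 3 counts in each, or 0.0949 to 0.152 CPM for counting error alone.

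Subunits that define the 3 kinds of complex were also set side by side. ARID1A and ARID1B together, of canonical BAF, had a summed length-scaled level of 18.0 to 27.9, ARID2 of PBAF 5.92 to 9.17, and BICRA with BICRAL of ncBAF 10.6 to 16.0. The ranges of the 3 did not overlap. By transcript length the means were 9.41 for ARID2, 5.53 for BICRA and 4.21 for BICRAL, so the gap between PBAF and ncBAF genes depends on the length used. The sum of ARID1A and ARID1B made up 51.0% to 57.2% of these 5 genes, or 70.4% to 74.6% by transcript length. RNA levels do not give the amount of each complex.

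Rapamycin was first compared with DMSO in the 6 libraries with the HBG1 sgRNA. With edgeR's quasi-likelihood test, adjusted over 23675 genes by Benjamini-Hochberg, 0 of 29 tested members passed an adjusted p of 0.05, where 6.80% of all genes did. At an unadjusted p under 0.05 there were 8 of 29 members and 4933 of 23675 genes, and DESeq2 called 0 members and 9.20% of all genes. The members' median log2 fold change was -0.05, beside 0.02 for all genes, with 11 members above 0 and 18 below. BCL11B was not tested.

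The intervals were narrow for most subunits. The 95% interval lay within a 1.5-fold change in either direction for 26 of 29 members, against 44.1% of all genes tested, and within 1.3-fold for 20 of 29, against 23.4%. Of the 23675 genes tested, 17985 were at or above the mean level of the lowest member. The shares thus do not compare genes at like levels. The 3 members with wider intervals, ACTL6B, DPF1 and DPF3, were the 3 with the fewest counts. Replicates of 1 group varied by a median of 7.95% (coefficient of variation) under DMSO and 9.36% under rapamycin.

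SMARCA4 (ENSG00000127616, chromosome 19, 10960825 to 11079426, plus strand) had 317, 325 and 345 CPM under DMSO and 305, 326 and 299 CPM under rapamycin in replicates 1, 2 and 3. The non-targeting DMSO library had 329.8 CPM, and the non-targeting rapamycin libraries 336 and 316 CPM. The HBG1 sgRNA groups overlapped, and the non-targeting values fell inside the range of those 6 libraries. The log2 fold change with the HBG1 sgRNA was -0.09 (SE 0.07, edgeR adjusted p 0.536), with a 95% interval from 0.851-fold to 1.04-fold. SMARCA2, the alternative ATPase, had a log2 fold change of 0.06 (95% interval -0.15 to 0.27).

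In the core, log2 fold changes ran from -0.20 for SMARCD1 to 0.18 for SMARCC2, which passed without rapamycin replicate 1 (0.26, edgeR adjusted p 0.0477). SMARCB1 (-0.06), SMARCE1 (-0.08), SMARCC1 (0.09), SMARCD2 (-0.04) and SMARCD3 (0.05) lay between. Of the actin group, ACTB had -0.11 and ACTL6A -0.02, both with intervals inside 1.3-fold. ACTL6B could not be resolved at 3 to 32 counts per library (95% interval 0.422-fold to 2.47-fold).

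Among the subunits that define a complex, PBAF members ran from -0.22 (PHF10) to 0.01 (ARID2), with PBRM1 at -0.03 and BRD7 at -0.05. Those of ncBAF ran from -0.15 (BRD9) to 0.21 (BICRAL), with BICRA at 0.02. In BAF, ARID1A had -0.14, ARID1B -0.06 and DPF2 -0.12, while DPF1 (-0.66) and DPF3 (0.69) had the largest values of all members. Of the BCL7 proteins, small partners of the ATPase, BCL7A had 0.21, BCL7B -0.19 and BCL7C -0.06.

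Same-numbered HBG1 sgRNA libraries passed the correlation limit of 0.1 set for pairing, so the same contrast was fitted with replicate number as a block. Replicates 2 and 3 also passed that limit when crossed (0.258 and 0.194). The check thus sets replicate 1 apart but does not show that numbers 2 and 3 pair. In that paired fit, on 6 libraries, 5 of 29 members passed, or 17.2%, where 17.1% of 20179 genes did. SS18 was the 1 member that rose, where 7.43% of all genes were called higher. SMARCD1, PHF10, DPF1 and SS18L1 fell, 4 of 29, where 9.62% of all genes were called lower. The members' share thus equalled that of genes at large. SMARCD1 and PHF10 were singled out after their values were seen. An additive model over both guides called 4 of 29 members, or 13.8%, and 13.8% of all genes: SS18 higher, and PHF10, SMARCD1 and SS18L1 lower.

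**Figure D2:**
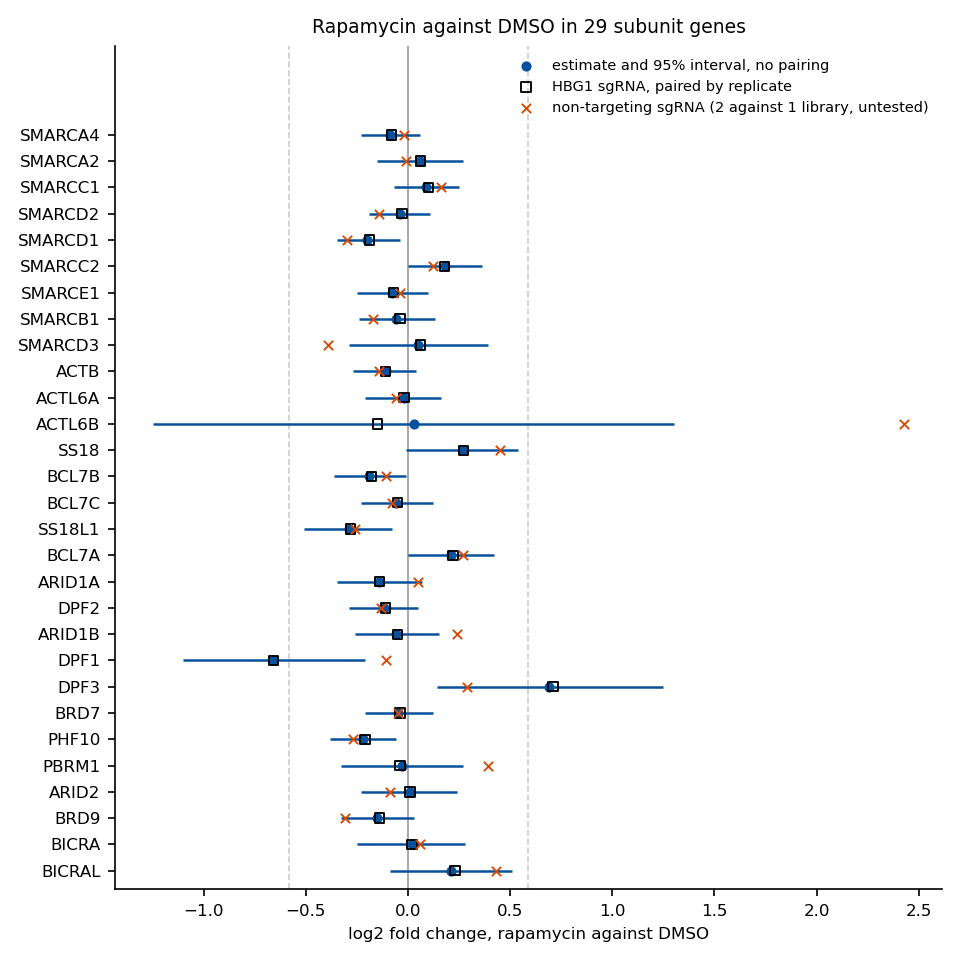
Log2 fold change of rapamycin against DMSO for 29 subunit genes, grouped by role. Circles with bars are the unpaired estimates with the HBG1 sgRNA and their 95% intervals, squares the paired estimates and crosses the untested values with the non-targeting sgRNA; dashed lines mark 1.5-fold. 26 of 29 intervals lie between the dashed lines, and those of ACTL6B, DPF1 and DPF3 do not.

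SS18, the subunit whose fusion was introduced, had 186, 258 and 235 CPM under DMSO and 210.1, 314 and 294 CPM under rapamycin in replicates 1, 2 and 3. The non-targeting libraries had 198 CPM under DMSO and 260.0 and 281 CPM under rapamycin. The HBG1 sgRNA groups overlapped because rapamycin replicate 1 lay under DMSO replicates 2 and 3. Between same-numbered libraries SS18 was higher under rapamycin in 3 of 3 pairs, by 0.17, 0.28 and 0.33 on the log2 scale. SMARCA2, SMARCC1, SMARCC2 and DPF3 were also higher in 3 of 3, and other members were lower in 3 of 3. The share of all genes with the same sign in every pair was not counted. The unpaired log2 fold change was 0.27 (SE 0.13, edgeR adjusted p 0.253), and the paired one 0.27 (SE 0.06, adjusted p 0.00296). With pair 3 left out the paired value was 0.23 and no longer passed (adjusted p 0.0666). The unpaired value was 0.43 without rapamycin replicate 1 and then passed (edgeR adjusted p 0.0141), but it was 0.15 without DMSO replicate 1 (0.547) or without rapamycin replicate 2 (0.592).

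SS18 counts can hold reads of the SS18-Frb transcript as well as of the gene, which cannot be told apart in a table by gene. Over 9 libraries the length-scaled level of SS18 varied by 19.9% (coefficient of variation), a spread exceeded among tested members by DPF1 (23.4%), DPF3 (26.2%) and ACTL6B (52.0%). Its value in the replicate 1 libraries was 0.47 lower on the log2 scale than in replicates 2 and 3 of the same groups, the lowest of the 29 members.

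SS18L1 (CREST), the paralog of SS18, had 38.7, 41.7 and 34.8 CPM under DMSO and 30.3, 34.6 and 29.2 CPM under rapamycin. The non-targeting DMSO library had 40.3 CPM and the rapamycin libraries 34.5 and 32.9 CPM. All 5 rapamycin libraries were below all 4 DMSO libraries, which differed least at 34.6 against 34.8 CPM. The share of all genes that separate in this way was not counted. The log2 fold change was -0.29 (SE 0.10, edgeR adjusted p 0.0945) without pairing and -0.28 (SE 0.08, adjusted p 0.0212) with it. SS18L1 was lower in 3 of 3 pairs, as were other members such as ARID1A, ARID1B, BCL7C and ACTB. Leaving out pair 1 (-0.26, adjusted p 0.118) or pair 3 (-0.31, adjusted p 0.0665) ended the paired edgeR call.

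**Figure D3:**
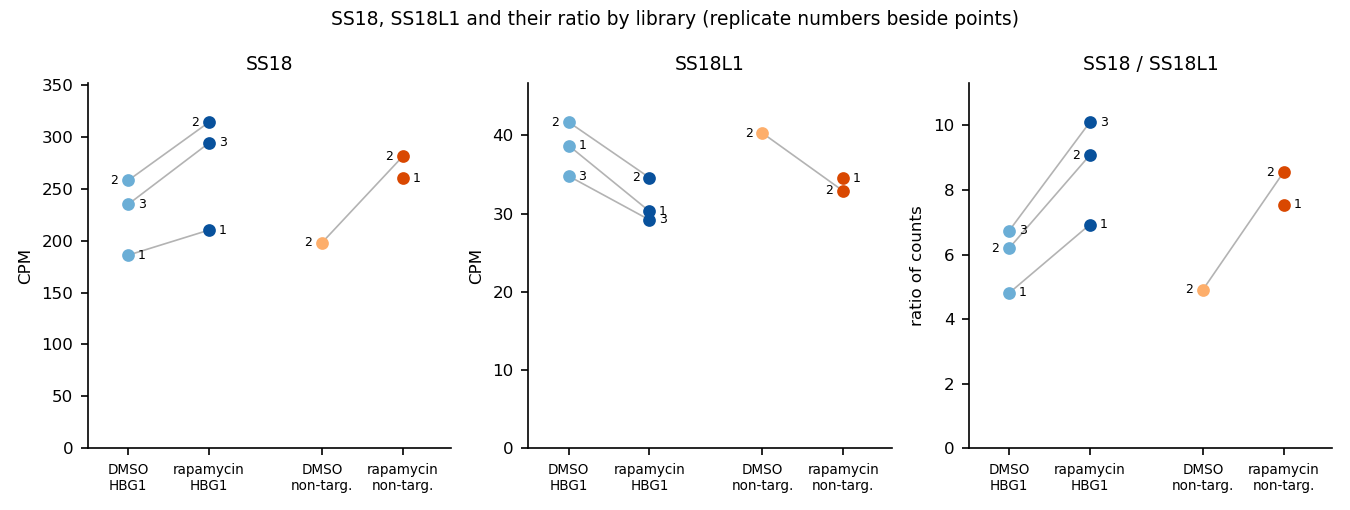
SS18 and SS18L1 in CPM and the ratio of their counts in each of 9 libraries, by treatment and guide, with lines joining same-numbered libraries of 1 guide. The ratio was 6.93 to 10.1 in the 5 rapamycin libraries and 4.81 to 6.74 in the 4 DMSO libraries. SS18 counts may include reads of SS18-Frb.

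The ratio of SS18 to SS18L1 counts within a library does not depend on scaling, but its SS18 counts may include reads of SS18-Frb. It was 4.81, 6.20 and 6.74 under DMSO and 6.93, 9.08 and 10.1 under rapamycin with the HBG1 sgRNA, 4.91 in the non-targeting DMSO library, and 7.54 and 8.55 in the non-targeting rapamycin libraries. Rapamycin was above DMSO in every library of either guide. With the HBG1 sgRNA the ratio was 1.46-fold higher, a log2 difference of 0.55 (two-sided exact permutation p 0.1, the smallest that 20 labelings allow, and 0.267 adjusted over 8 paralog pairs). All 5 rapamycin against all 4 DMSO libraries, a comparison added with the values known, differed by 0.58 (two-sided exact permutation p 0.0159, 0.0635 adjusted over 8 pairs), and it treats paired libraries as independent.

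Among the other pairs, BRD9 of ncBAF against its paralog BRD7 of PBAF also separated the treatments. The BRD9 to BRD7 ratio was 0.574 to 0.645 in the 5 rapamycin and 0.646 to 0.723 in the 4 DMSO libraries, a log2 difference of -0.14 in the comparison added with the values known (two-sided exact permutation p 0.0159, adjusted 0.0635). With the HBG1 sgRNA alone it was -0.11 (exact permutation p 0.1, adjusted 0.267). The ranges nearly touched, and the overlap of BRD7 with ADCY7 may have raised or lowered its count. The SMARCD1 to SMARCD2 ratio was lower under rapamycin in 3 of 3 pairs with the HBG1 sgRNA, by -0.16 on the log2 scale (exact permutation p 0.1, adjusted 0.267), but overlapped over both guides (0.634 to 0.756 against 0.721 to 0.828). The ratios of SMARCA4 to SMARCA2, SMARCC1 to SMARCC2, ARID1A to ARID1B, BICRA to BICRAL and BCL7B to BCL7C overlapped between treatments, with log2 differences of -0.14, -0.08, -0.09, -0.21 and -0.13. The ratios of SMARCA4 to SMARCA2, BCL7B to BCL7C and BRD9 to BRD7 were also lower in 3 of 3 pairs with the HBG1 sgRNA.

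DPF1 (ENSG00000011332, chromosome 19, 38211006 to 38229714, minus strand) is a histone-reading BAF subunit known from neurons. It had 5.22, 5.30 and 5.61 CPM under DMSO and 3.92, 2.76 and 3.54 CPM under rapamycin, with no overlap. The log2 fold change was -0.66 without pairing (SE 0.21, edgeR adjusted p 0.0736) and -0.66 with it (SE 0.21, adjusted p 0.0375). The paired call ended without pair 2 (-0.54, edgeR adjusted p 0.195) or pair 3 (-0.67, adjusted p 0.138). With the non-targeting sgRNA the levels were 4.25 CPM under DMSO and 3.47 and 4.41 CPM under rapamycin, which bracket the DMSO value.

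DPF3 (ENSG00000205683, chromosome 14, 72619296 to 72894116, minus strand), its relative, pointed the other way. It had 2.69, 1.81 and 2.80 CPM under DMSO and 4.75, 3.33 and 3.74 CPM under rapamycin, again with no overlap. The log2 fold change of 0.69 (SE 0.26) did not pass without pairing (edgeR adjusted p 0.134), nor with it (0.71, SE 0.25, adjusted p 0.0589). The non-targeting libraries had 2.49 CPM under DMSO and 3.55 and 2.55 CPM under rapamycin. The 95% interval of DPF3 reached from 1.10-fold to 2.38-fold, and that of DPF1 from 0.466-fold to 0.864-fold, so both sizes are poorly known at these counts.

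**Figure D4:**
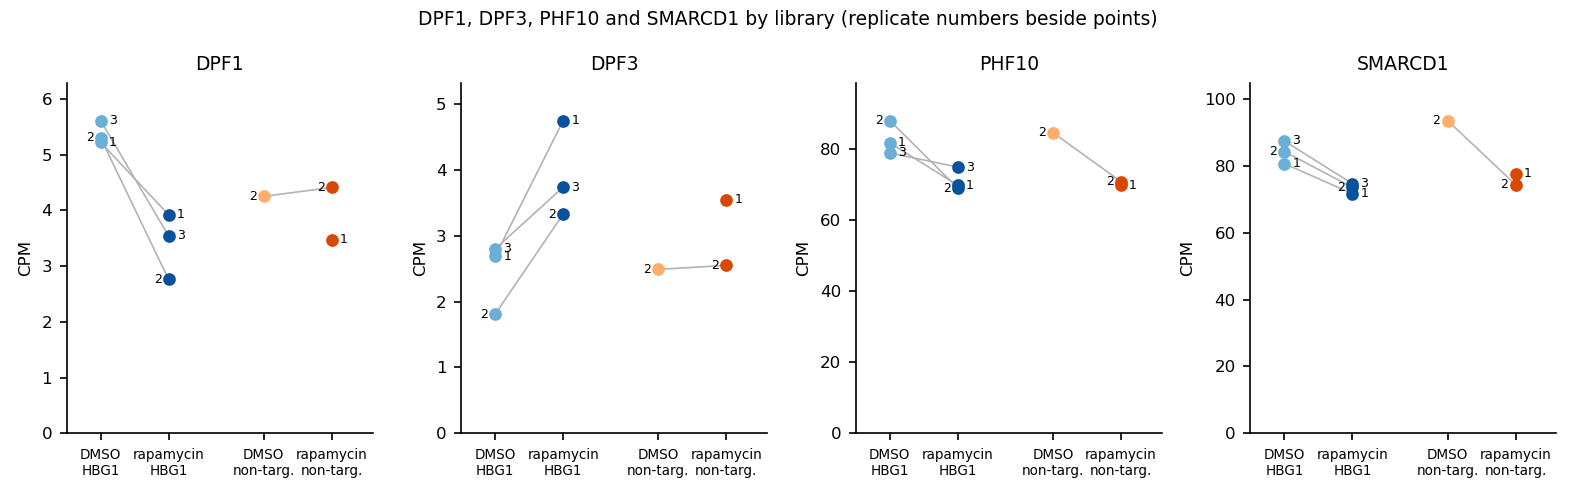
DPF1, DPF3, PHF10 and SMARCD1 in CPM in each of 9 libraries, by treatment and guide, with lines joining same-numbered libraries of 1 guide. With the HBG1 sgRNA the 3 rapamycin libraries lay below the 3 DMSO libraries for DPF1, PHF10 and SMARCD1 and above them for DPF3.

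PHF10, a histone reader of PBAF, had 81.7, 88.0 and 78.9 CPM under DMSO and 69.8, 69.0 and 74.9 CPM under rapamycin. With the non-targeting sgRNA it had 84.6 CPM under DMSO and 69.8 and 70.8 CPM under rapamycin, so all 5 rapamycin libraries lay below all 4 DMSO libraries. PHF10 was singled out after its values were seen, and the share of all genes that separate so was not counted. The log2 fold change was -0.22 (SE 0.08, edgeR adjusted p 0.106) without pairing and -0.21 (SE 0.07, adjusted p 0.0416) with it. The paired call ended without pair 1 (-0.21, edgeR adjusted p 0.114) or pair 2 (-0.15, adjusted p 0.213).

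SMARCD1 (BAF60A), a core subunit that contacts transcription factors, had 80.7, 84.3 and 87.5 CPM under DMSO and 71.7, 73.6 and 74.7 CPM under rapamycin. The non-targeting DMSO library had 93.6 CPM and the rapamycin libraries 77.7 and 74.4 CPM, again with the 5 below the 4. SMARCD1 too was singled out after its values were seen, with no share of all genes counted for such a separation. The log2 fold change was -0.20 (SE 0.07, edgeR adjusted p 0.124) without pairing and -0.19 (SE 0.06, adjusted p 0.0454) with it. Leaving out pair 1, 2 or 3 ended the paired call of SMARCD1 (edgeR adjusted p 0.112, 0.0688 and 0.200).

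In all, the CPM ranges of the treatments (3 libraries each, HBG1 sgRNA) did not overlap for 6 of 29 members, or 20.7%, where 25.3% of 23675 genes did not overlap. DPF3 was higher, and SMARCD1, PHF10, DPF1, DPF2 and SS18L1 were lower. Their count was near that of genes at large.

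The replicate 1 libraries with the HBG1 sgRNA stood apart from replicates 2 and 3, and among members this went with transcript length. The 5 members with transcripts over 6 kb, ARID1A, ARID1B, ARID2, BICRAL and SMARCC1, were all lower in replicate 1, by a median of -0.22 on the log2 scale, beside -0.17 for all genes of that length. Members of 4 to 6 kb had a median of -0.10 (5 of 6 below 0), beside -0.09, with PBRM1 at -0.45. Those of 2 to 4 kb had 0.02 beside -0.01, and those under 2 kb 0.05 beside 0.06. SS18, at 2.32 kb, was lower by more than any long member (-0.47). The part of RNA quality in these values was not tested.

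**Figure D5:**
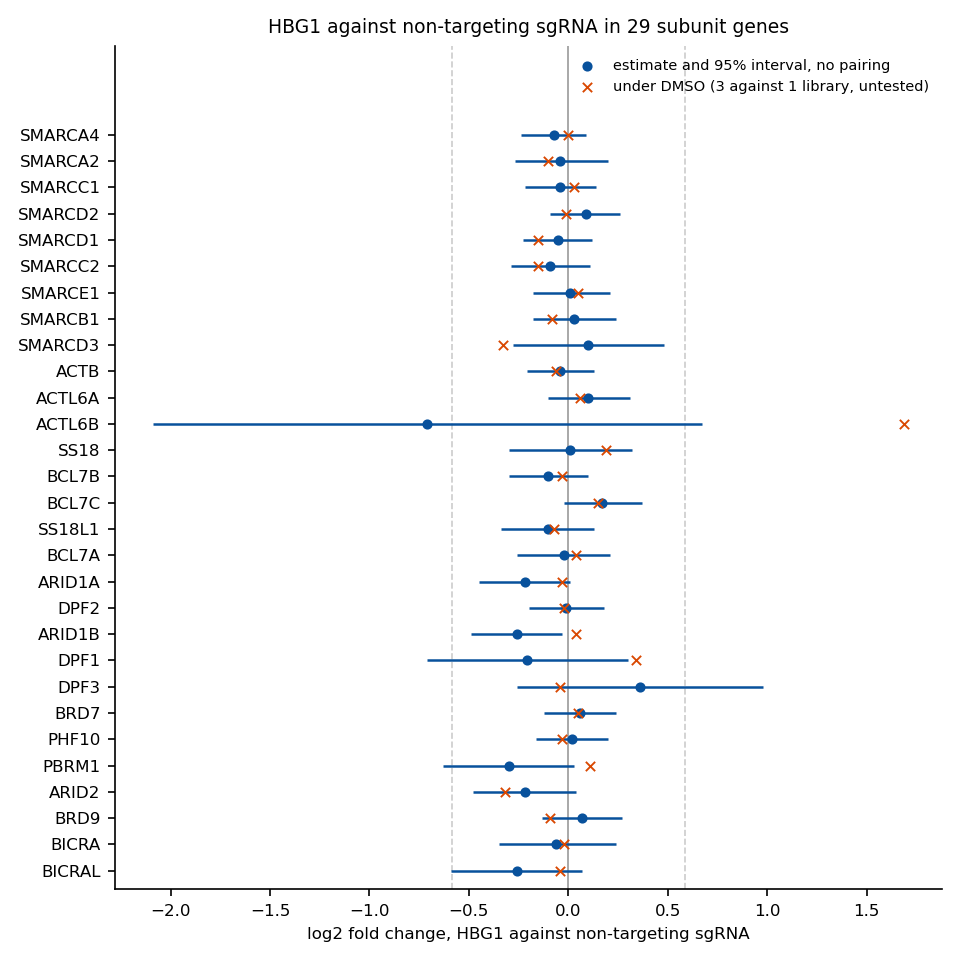
Log2 fold change of the HBG1 against the non-targeting sgRNA for 29 subunit genes, grouped by role. Circles with bars are the estimates under rapamycin with their 95% intervals, crosses the untested values under DMSO, and dashed lines mark 1.5-fold; 24 of 29 intervals lie between them.

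The guides were compared under rapamycin, 3 libraries against 2. Of 29 members, 0 passed (edgeR's quasi-likelihood test), where 0.0296% of all genes did, 1 had an unadjusted p under 0.05, as did 1484 of 23675 genes, and DESeq2 called 0 members and 0.0549% of all genes. The member with that p was ARID1B, a DNA-binding subunit of BAF, at -0.26 (SE 0.11, edgeR adjusted p 0.773). It had 83.5, 93.6 and 101 CPM with the HBG1 sgRNA and 122 and 100.2 CPM with the non-targeting sgRNA, which overlapped. SS18 differed by 0.01 (95% interval -0.30 to 0.32) and SMARCA4 by -0.07 (-0.24 to 0.09). The CPM ranges of the guides did not overlap for ARID1A, PBRM1, BICRAL and ACTL6B, lower with the HBG1 sgRNA, and for BCL7C, higher with it. The share of all genes without overlap between guides was not counted. The intervals of 28 of 29 members lay within 2-fold, the exception being ACTL6B, beside 62.0% of all genes. Those of 24 members lay within 1.5-fold, beside 46.6%.

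Under DMSO the non-targeting sgRNA has 1 library, so values are given with no test. Log2 fold changes of the HBG1 sgRNA were 0.19 for SS18, -0.07 for SS18L1, 0.34 for DPF1, -0.32 for ARID2 and -0.33 for SMARCD3. SMARCA4 stood at 0.00 (329 ± 14.6 CPM, SD, n = 3, against 329.8 CPM).

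With the non-targeting sgRNA, rapamycin against the same single DMSO library gave log2 fold changes of 0.45 for SS18, -0.26 for SS18L1, -0.30 for SMARCD1, -0.27 for PHF10, 0.29 for DPF3 and -0.11 for DPF1, untested. Each has the sign it had with the HBG1 sgRNA. All but SS18 were named by their values with that sgRNA, and how many of all genes keep their sign was not counted. For DPF1 the non-targeting replicate 2 libraries alone gave 0.05, the other sign. SMARCD3 was at -0.39 with the non-targeting sgRNA and at 0.05 with the HBG1 sgRNA, and PBRM1 at 0.39 and -0.03. The 2 guides share no libraries in this contrast.

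Whether rapamycin acted on the members differently with each guide was tested as an interaction. Of 29 members, 0 passed (edgeR's quasi-likelihood test), 0 had an unadjusted p under 0.05 and DESeq2 called 0, where 0.00422% of all genes passed and 678 of 23675 had an unadjusted p under 0.05. The estimate was -0.18 for SS18 (95% interval -0.68 to 0.32), -0.04 for SS18L1 (-0.42 to 0.35) and -0.54 for DPF1 (-1.35 to 0.26). The intervals of 25 of 29 members lay within 2-fold (50.2% of all genes), but 11 of 29 lay within 1.3-fold (7.56% of all genes). Modest differences between guides were thus not detectable with these libraries.

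Other chromatin regulators were counted beside the members, from lists of ISWI remodellers (12 genes), CHD and NuRD (21), INO80, SRCAP and TIP60 (23) and Polycomb (25). Under rapamycin with the HBG1 sgRNA, without pairing, 4 of the 56 genes of the first 3 lists fell, 0 rose (7.14% called, beside 6.80% of all genes), and their median log2 fold change was -0.11, beside -0.05 for the members. UCHL5, a deubiquitinase of INO80, fell from 146 ± 11.5 to 111 ± 4.67 CPM (SD, n = 3 each; log2 fold change -0.39, edgeR adjusted p 0.00598), and NFRKB, another INO80 subunit, fell by 0.29 on the log2 scale (adjusted p 0.0406). BAZ1B, a partner of the ISWI ATPase, fell by 0.27 on that scale (edgeR adjusted p 0.0485), and POLE3, a histone-fold subunit of CHRAC, fell by 0.26 (0.0423). With pairing 16 of the 56 passed (28.6%), 15 lower and 1 higher, beside 17.2% of members and 17.1% of all genes.

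Of the Polycomb genes, which oppose SWI/SNF at many sites, 3 of 25 passed without pairing (beside 6.80% of all genes), with a median of -0.13. EED, a core subunit of PRC2, fell by 0.42 (edgeR adjusted p 0.00994), PHF19, a PRC2 accessory protein, fell by 0.25 (adjusted p 0.0468), and CBX7, a chromodomain subunit of PRC1, rose by 0.63 (adjusted p 0.0261). With pairing 8 of 25 passed (beside 17.1% of all genes), 6 lower and 2 higher. Between guides and in the interaction, 0 genes of any of these lists passed by edgeR. At an unadjusted edgeR p under 0.05 there were 11 of 56 remodeller genes and 1 of 25 Polycomb genes between guides, beside 1484 of 23675 genes. In the interaction there were 2 of 56 and 0 of 25, beside 678 of 23675.

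FKBP1A, whose protein rapamycin binds and from which the Fkbp part derives, had a log2 fold change of -0.23 with the HBG1 sgRNA (SE 0.09, edgeR adjusted p 0.163), and MTOR, which supplies the Frb domain, 0.06 (adjusted p 0.857). Neither passed, like the 29 subunit genes without pairing. Reads of the introduced parts may be counted under both names.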

How the data were processed

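Per the labels' protocols, libraries were made from poly-T selected RNA (NEBNext Ultra). The authors deposited whole-number read counts per Ensembl gene for 9 libraries. The submitters' processing notes name STAR 2.7.3a, featureCounts, Subread 2.0.0, R 4.1.2, limma 3.34.9, edgeR 3.24.0 and GRCh38, and state neither a strand setting nor the treatment of multi-mapping reads. Symbols, positions and lengths came from GENCODE 29 (99.47% of identifiers found) and promoter windows from RefSeq.

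Counts were tested with edgeR 4.0.16 in R 4.3.3: filterByExpr by group (minimum count 10, 23675 genes), TMM, 1 mean per group over 9 libraries, quasi-likelihood F-test, Benjamini-Hochberg over all genes. The single non-targeting DMSO library is assumed to vary like the other groups. CPM are TMM-scaled. Alternatives were DESeq2 1.42.0, other scalings and filters, blocks, an additive model and libraries left out. The script was tested on simulated data.

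Deviations of same-numbered HBG1 sgRNA libraries correlated at 0.553, 0.278 and 0.231 across 11498 genes. These were above the limit of 0.1, so replicate number was used to pair them. Replicates 2 and 3 also correlated when crossed (0.258 and 0.194). The check thus sets replicate 1 apart but cannot show that numbers 2 and 3 pair.

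The rule gave values by library for SMARCA4, SS18, members called in a main test (0), and the 3 uncalled members with the largest rapamycin change (DPF3, DPF1, SS18L1); SMARCD1, PHF10 and ARID1B were added after their values were seen; per other list, up to 3 called genes with the largest changes at a mean log2 CPM of at least 1. Members, lists and rules were chosen with earlier results of these data known.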

Additional observations from a re-analysis of the deposited data

How the results depend on the processing

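The count of members called between rapamycin and DMSO (HBG1 sgRNA) was 0 without pairing and moved with the model. With replicate number as a block it was 5 on the 6 HBG1 sgRNA libraries (17.2%, beside 17.1% of all genes) and 1 (SS18; 3.45% beside 9.24%) over all 9 libraries, and the additive model gave 4 (13.8% in both). With no filter it was 1 (SS18, adjusted p 0.0175; 3.45% beside 5.65%). Leaving out 1 library gave 0 to 2, the 2 being SMARCC2 and SS18 without HBG1 sgRNA rapamycin replicate 1 (6.90% beside 7.36%). Among settings added after seeing the data, the block gave 2 (DPF1, SS18; 6.90% beside 13.3%) without pair 1, 4 (ARID1A, BRD9, SS18, SS18L1; 13.8% beside 15.5%) without pair 2 and 1 (PHF10; 3.45% beside 8.95%) without pair 3, and leaving out both replicate 1 libraries gave 1 (SS18; 3.45% beside 9.09%). SS18 was called under 8 of 22 alternatives (adjusted p 0.00204 to 0.592, log2 fold change 0.15 to 0.43), and none of SMARCA4, SMARCD1, PHF10, DPF1, DPF3, SS18 and SS18L1 changed sign in this comparison. Between guides and in the interaction, 0 members were called under every setting run; the interaction could not be fitted without the non-targeting DMSO library. All genes called moved from 1609 to 3263 (additive), 3441 (block) and 664, 749 and 693 without DMSO replicate 2, DMSO replicate 3 or rapamycin replicate 3. Between guides the count went from 7 to 91 with no filter, 21 with the block, 13 with DESeq2 and the additive model, 3 without non-targeting rapamycin replicate 1 and 37 without both replicate 1 libraries; in the interaction it went from 1 to between 0 and 8. The BICRA to BICRAL difference was -0.02 without replicate 1 and -0.45 without replicate 2. Depth limits ACTL6B, DPF1 and DPF3.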
